A study of Mus musculus with 2 samples.

Results

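The genes described here encode the calcineurin, NFAT and CaMKII signaling proteins of the heart: Rcan1, the calcineurin subunits Ppp3ca, Ppp3cb and Ppp3r1, the transcription factors Nfatc1, Nfatc2, Nfatc3 and Nfatc4, and the kinase subunits Camk2d and Camk2b. They were taken by symbol, and all 10 were among the 19465 genes listed for the sections. Expression was measured by spatial transcriptomics (Visium CytAssist) in 1 formalin-fixed heart section of 5 μm from each of 2 groups. The control heart came from an α-MHC-MerCreMer+/− mouse and the other from a TOP2B transgenic α-MHC-MerCreMer+/− hTOP2B LSL/− mouse. Both mice carried the Cre recombinase and both received tamoxifen at 80 mg/kg, so by their labels the groups differ by the transgene. It is a human TOP2B cDNA under the CAG promoter behind a floxed stop at Rosa26. With 1 section per group, the transgene cannot be told apart from other differences between the 2 animals or sections. Cre is driven by the α-MHC promoter, which is active in cardiomyocytes. Mice of this single-dose model were 6 weeks old when given tamoxifen, and the time from the dose to the collection of these sections is not given in the sources used here.

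Calcineurin is a phosphatase that calcium and calmodulin switch on. It removes phosphates from NFAT factors, which then enter the nucleus and, together with GATA4 and MEF2, act on genes of cardiac growth. Rcan1 is both a target of this signal and an inhibitor of calcineurin, so its transcript is widely read as a gauge of the pathway. CaMKII, the calcium and calmodulin dependent kinase, runs in parallel, phosphorylates proteins of calcium cycling and moves class IIa histone deacetylases out of the nucleus.

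The control section held 1256 spots and 14376300 unique molecular identifiers (UMIs), and the transgenic section 924 spots and 12953389 UMIs, with medians of 11336 and 14531 UMIs per spot. Levels are UMIs summed over a section per 1000000 UMIs (CPM), and the sections are set against each other by the log2 of the transgenic level over the control level. As each condition has a single section, there is no replicate and no test, so ranges in parentheses are 95% intervals for counting error alone and say nothing of the spread between animals. The spread inside a section is given over its 4 quadrants. A spot can hold several cells of different types, and fewer cells of a type and less RNA per cell cannot be told apart. Over the 15236 genes that reached 20 UMIs in total, the log2 ratio had a median of 0.20, and each gene is therefore also placed against it. The mouse Top2b probes counted 106 and 102 CPM, a log2 ratio of -0.07 (-0.17 to 0.04), and need not report the human transgene, so they check no label. The sections also differed in markers of cell types. The summed cardiomyocyte markers had a log2 ratio of -0.54 with 2 of 5 genes higher. That sum leaned on Myh6, which held 265534 of its 553370 control UMIs and 74280 of its 344043 transgenic UMIs. Myh6 had a log2 ratio of -1.69, and the other cardiomyocyte markers ran from Ttn at -0.60 to Tnnt2 at 0.17. The fibroblast markers were at 1.01 with 4 of 4 higher, the macrophage markers at 1.01 with 4 of 4 higher and the erythroid genes at 3.25 with 4 of 4 higher. The atrial markers were at 1.35 with 3 of 4 higher. Endothelial markers were at -0.21 with 3 of 5 higher, and mural markers at 0.05 with 2 of 4 higher. None of these markers was at 0 in either section.

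Rcan1 was 1.91-fold higher in the transgenic section and Camk2d 2.59-fold lower, and both differences held in every quadrant. Of the 10 genes, 8 were higher and 2 lower, against 63.2% and 36.8% of the 15236 genes. With TMM factors 7 of the 10 and 52.4% of all genes were higher, since Nfatc3 then lay below 0. The interval lay above 0 for 7 and below 0 for 2, against 39.4% and 17.0% of all genes. At least 2-fold higher was 1 gene, Nfatc4 (log2 ratio 1.03, or 0.88 with TMM factors), where 13.7% of all genes were, and at least 2-fold lower was 1 gene, Camk2d, where 5.61% were. Every transgenic quadrant was above every control quadrant for 6 genes and below for 2, against 30.4% and 13.1% of all genes. The quadrants overlapped for Ppp3r1 and Nfatc3. The median log2 ratio of the 10 genes was 0.50, which is 0.30 above that of all genes.

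**Figure D1:**
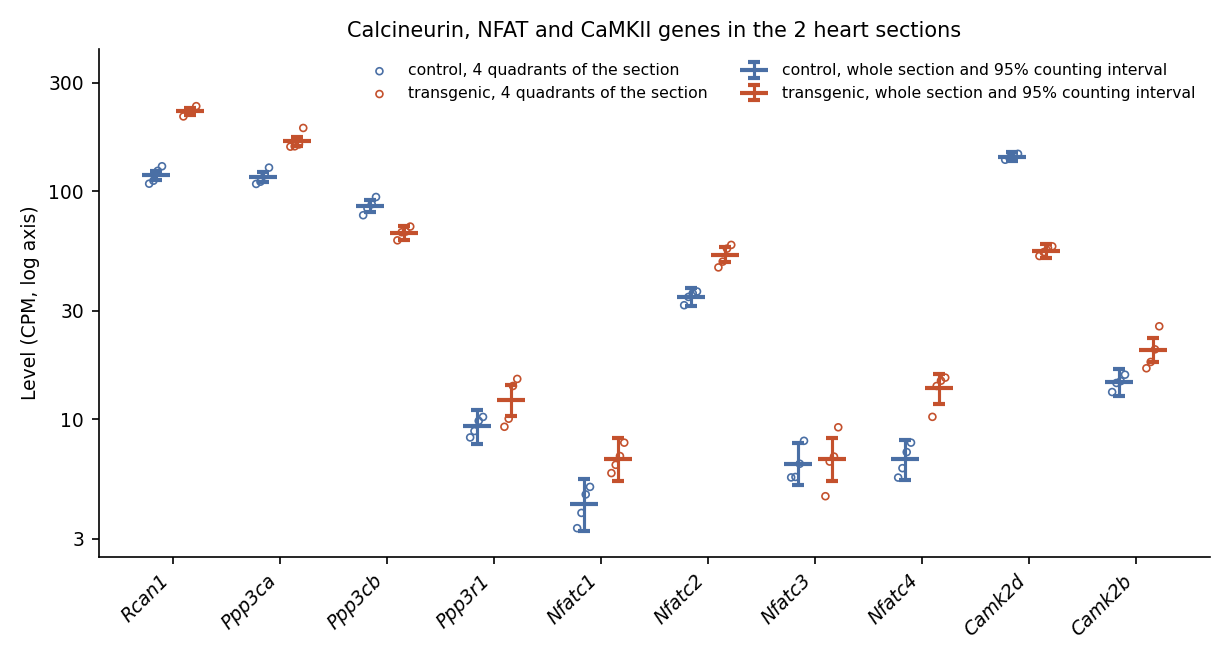
Level of each of the 10 genes in CPM (log axis) in the control section (blue) and the TOP2B transgenic section (red). Dashes are whole sections with 95% counting intervals and open circles are the 4 quadrants of each section. The quadrants of Rcan1 lie at 108 to 129 CPM (control) and 213 to 236 CPM (transgenic), and those of Camk2d at 138 to 146 and 52.1 to 57.4 CPM.

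Rcan1, the regulator of calcineurin, was counted 1690 times in the control section and 2907 times in the transgenic section, or 118 and 224 CPM. The control quadrants read 108, 111, 123 and 129 CPM and the transgenic quadrants 213, 225, 226 and 236 CPM. All transgenic quadrants were thus above all control quadrants, and the log2 ratio was 0.93 (0.85 to 1.02). This was 0.73 above the median of all genes, and 84.8% of genes had a lower ratio. Rcan1 was detected in 72.6% of control and 90.5% of transgenic spots. After each spot was thinned to 8134 UMIs, with 1116 control and 846 transgenic spots deep enough to be kept, the shares were 61.0% (58.1 to 63.9) and 83.2% (80.5 to 85.7). The share was thus higher in the transgenic section at equal depth too, where the mean was 0.941 and 1.87 UMIs per spot. At 1 depth, the share of spots restates the level and is no separate support for it. The intervals of such shares, here and below, treat the spots of 1 section as independent.

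Rcan1 has alternative first exons, and its downstream start is known as the one that calcineurin and NFAT induce. The probe counts are per gene and do not tell which start was used. RefSeq gives windows of the 250 bases before both starts, which lie 66091 bases apart on the minus strand of GRCm38.p6. They are shown because they differ in matches to the NFAT core GGAAA, searched on both strands as GGAAA and TTTCC and printed in capitals.
Rcan1 upstream start, chr16:92466170-92466419: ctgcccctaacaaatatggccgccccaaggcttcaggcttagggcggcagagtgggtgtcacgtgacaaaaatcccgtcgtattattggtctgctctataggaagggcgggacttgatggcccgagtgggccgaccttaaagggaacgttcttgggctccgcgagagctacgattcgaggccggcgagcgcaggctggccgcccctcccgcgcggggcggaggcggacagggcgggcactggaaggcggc
Rcan1 downstream start, chr16:92400079-92400328: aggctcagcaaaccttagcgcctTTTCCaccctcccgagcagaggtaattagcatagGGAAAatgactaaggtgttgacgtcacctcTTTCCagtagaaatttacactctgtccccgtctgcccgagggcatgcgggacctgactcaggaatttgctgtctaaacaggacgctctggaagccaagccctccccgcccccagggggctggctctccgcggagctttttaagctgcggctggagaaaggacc
The upstream window held 0 matches and the downstream window 3. Of the 32851 windows of this length in the table, 55.6% held at least 1 match and 6.39% at least 3. Of the other genes, 7 had a window here, and those of Nfatc4, of Ppp3cb and of the first listed start of Nfatc2 also held 3 matches each. Nfatc4 and Nfatc2 were higher and Ppp3cb lower in the transgenic section, and a link between matches and levels was not tested. These matches describe letters and no bound site.

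The calcineurin subunits differed in direction. Ppp3ca, the alpha isoform of the catalytic subunit, was counted at 115 CPM in the control heart and at 166 CPM with the transgene, with quadrants of 108 to 127 and 157 to 190 CPM. Its log2 ratio was 0.52 (0.43 to 0.61), no quadrant overlapped, and 69.1% of genes had a lower ratio. Ppp3cb, the beta isoform of the catalytic subunit, was counted at 86.3 and 65.7 CPM, with quadrants of 78.6 to 94.5 and 61.0 to 70.1 CPM. Its log2 ratio was -0.39 (-0.52 to -0.27), again with no overlap, and 18.0% of genes had a lower one. Ppp3r1, the regulatory calcineurin B subunit, was sparse, with 134 and 157 UMIs or 9.32 and 12.1 CPM. The log2 ratio of Ppp3r1 was 0.38 (0.04 to 0.72), its quadrants overlapped, and its interval included the median of all genes. Summed over Ppp3ca and Ppp3cb the log2 ratio was 0.20 (0.12 to 0.27), equal to the median of all genes at 2 decimals. The pair thus differed between the sections in makeup and not in its sum beyond the general shift. Ppp3cb made up 42.8% (41.0 to 44.6) of the pair in the control and 28.4% (26.8 to 30.1) in the transgenic section, with quadrants of 40.0% to 46.7% and 26.0% to 30.8%.

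In the NFAT family, 3 of the 4 genes were higher in the transgenic section beyond counting error. So were 39.4% of all genes, a share not matched on UMI counts. Nfatc4 was counted at 6.68 and 13.7 CPM on 96 and 177 UMIs, with control quadrants of 5.55, 6.11, 7.18 and 7.91 CPM and transgenic quadrants of 10.3, 14.0, 14.8 and 15.2 CPM. Its log2 ratio of 1.03 (0.67 to 1.41) was above that of 87.0% of genes. Nfatc2 was counted at 34.5 and 52.7 CPM with quadrants of 31.7 to 36.4 and 46.4 to 58.2 CPM. The log2 ratio of Nfatc2 was 0.61 (0.44 to 0.78), above that of 73.6% of genes, and its quadrants did not overlap. Nfatc2 is also used by T cells, whose part in the result was not tested: the 4 lymphocyte markers had 148 UMIs in each section, a log2 ratio of 0.15 (-0.19 to 0.49) with 2 of 4 higher, and none was at 0. Nfatc1, a factor of endocardium and valves, had 61 and 87 UMIs, or 4.24 and 6.72 CPM, with quadrants of 3.33 to 5.06 and 5.81 to 7.90 CPM. Its log2 ratio was 0.66 (0.17 to 1.16), an interval that includes the median of all genes. The 3 endocardial markers, of which Nfatc1 is 1, were all higher, from 40.9 to 119 CPM in sum, and their part in the Nfatc1 value was not tested. Nfatc3 did not differ beyond counting error, with 92 and 87 UMIs, 6.40 and 6.72 CPM and a log2 ratio of 0.07 (-0.37 to 0.51). That interval included the median of all genes, and 41.4% of genes had a lower ratio. The sign for Nfatc3 turned with TMM or DESeq2 scaling, and its quadrants overlapped.

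The share of spots with a UMI was also higher for Nfatc4 and Nfatc2. At the common depth of 8134 UMIs, Nfatc4 was found in 5.20% (3.97 to 6.67) of control and 11.8% (9.72 to 14.2) of transgenic spots, and Nfatc2 in 22.5% (20.1 to 25.1) and 36.3% (33.0 to 39.6). Nfatc1 was found in 3.32% and 5.20% of spots and Nfatc3 in 5.29% and 5.08%. These low shares leave most spots without a UMI of Nfatc1, Nfatc3 or Nfatc4, which at this depth does not mean that the spot lacked the transcript.

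Camk2d, the delta subunit and the main CaMKII isoform of the heart, was the gene of the set with the lowest ratio. It was counted 2042 times in the control section and 710 times in the transgenic section, or 142 and 54.8 CPM. The control quadrants read 138, 140, 144 and 146 CPM and the transgenic quadrants 52.1, 54.1, 56.4 and 57.4 CPM. The quadrants stood far apart, and the log2 ratio was -1.37 (-1.50 to -1.25), with 2.40% of genes below it. In the thinned spots Camk2d was found in 66.9% (64.1 to 69.7) of control and 36.9% (33.6 to 40.2) of transgenic spots. The summed cardiomyocyte markers, Myh6 among them, stood at 38492 and 26560 CPM, a log2 ratio of -0.54. They differed among themselves, from Myh6 at -1.69 to Tnnt2 at 0.17, and their part in the Camk2d value was not tested. Among only those 50% of spots that had the highest share of cardiomyocyte genes, the log2 ratio of Camk2d was -1.32. Camk2b, the beta subunit, went the other way, at 14.5 and 20.2 CPM with quadrants of 13.2 to 15.7 and 16.8 to 25.6 CPM. Its log2 ratio was 0.48 (0.21 to 0.75), and the lower end of that interval lay just above the median of all genes. Among the 50% of spots with the highest share of cardiomyocyte genes, Camk2b was at 0.23, near the median of all genes there at 0.16.

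Within families the genes exchanged shares, a measure that no scaling between sections can move. Camk2d made up 53.1% (51.5 to 54.7) of the UMIs of the 4 CaMKII genes in the control and 32.3% (30.3 to 34.3) in the transgenic section. Camk2g, the gamma subunit, stood at 24.8% and 36.2%, while Camk2b stood at 5.43% and 11.9% and Camk2a at 16.7% and 19.6%. In CPM, Camk2g differed little, with a log2 ratio of -0.11 (-0.25 to 0.03). Camk2a was lower, at 44.6 and 33.3 CPM with a log2 ratio of -0.42 (-0.60 to -0.24). The family as a whole had a log2 ratio of -0.66 (-0.73 to -0.58). The larger shares of Camk2g and Camk2a therefore came with a smaller family sum and not with higher levels of these 2 genes. Rcan1 made up 55.4% (53.7 to 57.2) of the UMIs of the 3 Rcan genes in the control and 72.7% (71.2 to 74.0) in the transgenic section. Rcan2, another inhibitor of calcineurin, stood at 85.1 and 61.9 CPM with a log2 ratio of -0.46 (-0.59 to -0.33), so the related genes Rcan1 and Rcan2 differed in opposite directions. Rcan3 was higher like Rcan1, at 9.39 and 22.5 CPM on 135 and 292 UMIs, with a log2 ratio of 1.26 (0.96 to 1.57). The NFAT genes kept nearer to their control shares, at 66.6% and 66.0% for Nfatc2, 12.9% and 17.1% for Nfatc4, 12.3% and 8.42% for Nfatc3 and 8.19% and 8.42% for Nfatc1. Probes differ in efficiency, so these shares are read only for their difference between sections.

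**Figure D2:**
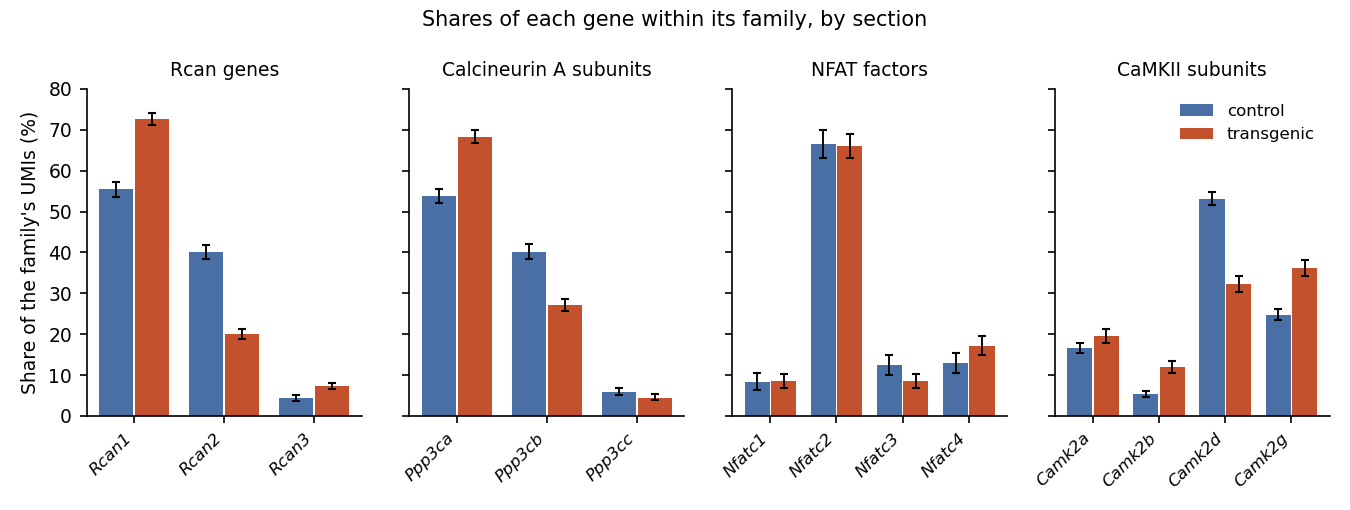
Share of each gene in the summed UMIs of its family (percent) in the control (blue) and transgenic (red) section, with 95% binomial intervals for counting error. Camk2d stood at 53.1% and 32.3% of the CaMKII genes and Rcan1 at 55.4% and 72.7% of the Rcan genes, while Nfatc2 stood at 66.6% and 66.0% of the NFAT genes.

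The wider pathway was described with 9 lists of 73 genes that include the 10, of which 71 had at least 20 UMIs. Of these 71 genes, 48 were higher and 23 lower (42 higher with TMM factors), where 63.2% of all genes were higher and 36.8% lower (52.4% higher with TMM factors). This lies near the share over all genes, which is also the one to read the counts of the single lists against. Their median log2 ratio was 0.38 against 0.20 over all genes. Without the 10 genes, 40 were higher and 21 lower, with a median of 0.31. Calmodulins and other calmodulin kinases were higher in 9 of 10 cases, with a median of 0.95. They ran from Prkd1, a protein kinase D, at -0.15 (-0.45 to 0.16) to Camk4, a nuclear calmodulin kinase, at 1.97 (1.06 to 2.99) on 13 and 46 UMIs. The kinases that return NFAT to the cytoplasm were higher in 7 of 8 cases (6 under TMM scaling), with a median of 0.30, near the 0.20 of all genes, and a range from Dyrk1b at -0.65 to Gsk3b at 0.52. Genes of calcium entry, which are channels and sensors of the calcium store, were higher in 7 of 10 cases (6 under TMM scaling). They ran from Cacna1c, the pore of the adult L-type channel, at -2.21 (-2.39 to -2.03) to Cacna1h, a T-type channel gene, at 2.16 (1.74 to 2.60).

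Inhibitors and anchors of calcineurin were higher in 9 of 13 cases, with a median of 0.56, and spread widely. Akap5, an anchoring protein, was at -2.08 (-2.96 to -1.29) on 75 and 16 UMIs, and Myoz1, the calsarcin of fast muscle, at 2.85 (2.37 to 3.37) on 40 and 260 UMIs. Of the 4 skeletal muscle markers, which summed to 68 and 467 UMIs, 3 were higher, but Tnnt3 alone held 384 of the transgenic UMIs, Myh1 had 6 in each section and Myh4 had 3 and 2. Their part in the Myoz1 value was not tested. Among genes picked after their values were seen, Myoz2, the cardiac calsarcin that holds calcineurin at the Z-disc, was at 1155 and 442 CPM, and Lmcd1, a LIM protein linked to calcineurin, was at 101 and 329 CPM. The calcium cycling proteins that CaMKII phosphorylates were lower in 5 of 6 cases, with a median of -0.76. They ran from Atp2a2, the calcium pump of the sarcoplasmic reticulum, at -1.66 (-1.67 to -1.64) to Itpr2 at 0.51 (0.13 to 0.90), the 1 gene of that list that was higher. The list of CaMKII subunits and inhibitors split 3 to 3 between Camk2d and Camk2n1, an inhibitor of CaMKII, at 0.83 (0.70 to 0.96). MEF2, GATA4 and class IIa histone deacetylase genes split 5 to 4, with 2 higher under TMM scaling, from Hdac4 at -1.15 (-1.33 to -0.97) to Mef2b at 1.94 (1.03 to 2.96) on 13 and 45 UMIs. The calcineurin subunits split 2 to 2, and the NFAT factors, with Nfat5, were higher in 5 of 5 cases (4 under TMM scaling).

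**Figure D3:**
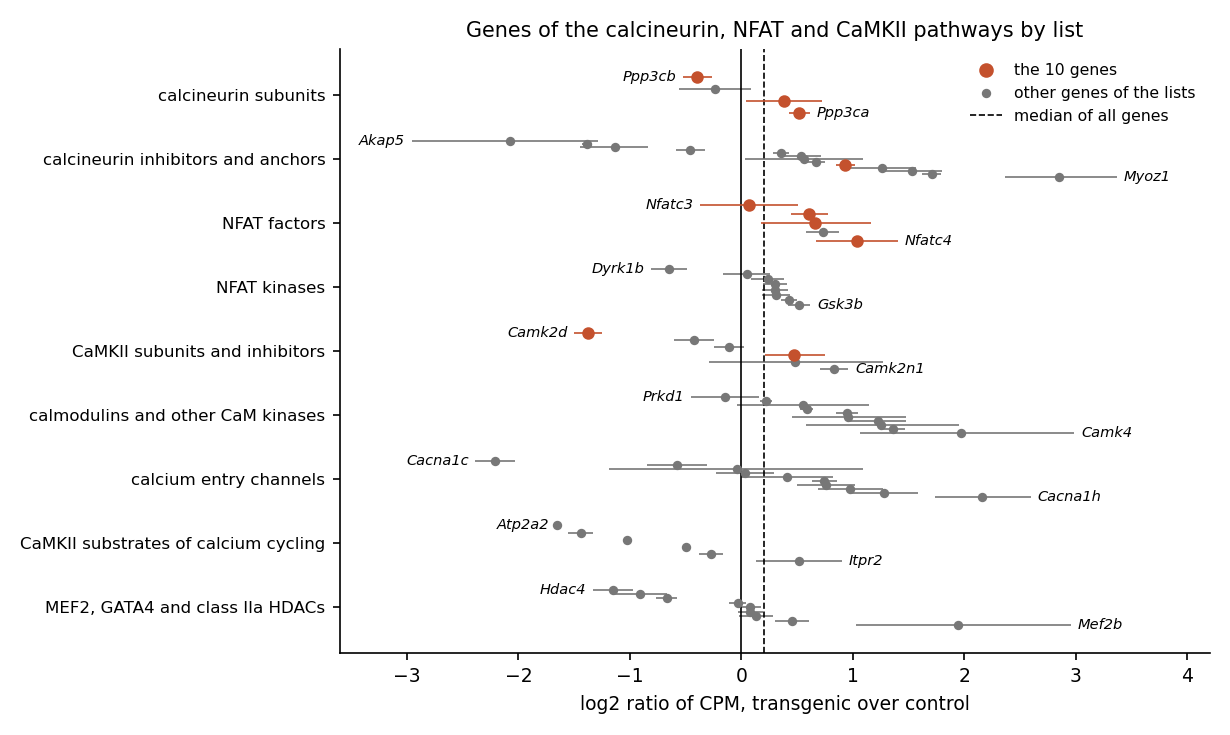
Log2 ratio (transgenic over control, with its 95% counting interval) of the 71 genes of the 9 pathway lists with at least 20 UMIs. Red points are the 10 genes and grey points the others, the solid line marks 0, the dashed line the median of all genes at 0.20, and the highest and lowest gene of each list are named. The calmodulin list lies mostly to the right and the CaMKII substrates mostly to the left.

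Whether Rcan1 follows the switch from adult to fetal myosin was examined among spots of the transgenic section, which were ordered by their myosin and cut into quintiles. Myh7, the fetal myosin heavy chain of the mouse ventricle, was counted at 33.6 CPM in the control heart and at 7847 CPM with the transgene, and Myh6, the adult form, at 18470 and 5734 CPM. In the 885 transgenic spots with at least 20 UMIs of both together, Myh7 made up a median of 57.8% of them. These spots held 2904 of the Rcan1 UMIs and were cut into quintiles of 177 spots by the Myh7 share, from 22.7% to 46.8% in the lowest to 66.4% to 82.9% in the highest. Rcan1 read 232, 223, 231, 219 and 229 CPM from the lowest to the highest quintile. The level had no order over the quintiles, with a log2 ratio of highest over lowest of -0.02 (-0.19 to 0.15). The rank correlation across the 885 spots, which share 1 section and its depth, was -0.02. All 5 quintiles stood above the highest control quadrant of Rcan1. With spots thinned to equal depth the ratio of the outer quintiles was -0.11 (-0.34 to 0.12), and in the middle of 3 depth classes 0.21 (-0.08 to 0.50).

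The quintiles were not alike in other respects. The share of spots at the tissue edge was 15.8% in the lowest and 45.8% in the highest quintile, erythroid UMIs made up 0.822% and 1.67%, fibroblast markers 0.0814% and 0.127%, and the median UMIs per spot were 15387 and 14220. In the spots away from the edge Rcan1 had a log2 ratio of -0.02 (-0.21 to 0.18) between the outer quintiles and a rank correlation of -0.0022. The maps of Rcan1 and of the Myh7 share, read by eye, show the same. The Myh7 share was lower in one part of the transgenic section, and the pattern of Rcan1 did not follow it.

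**Figure D4:**
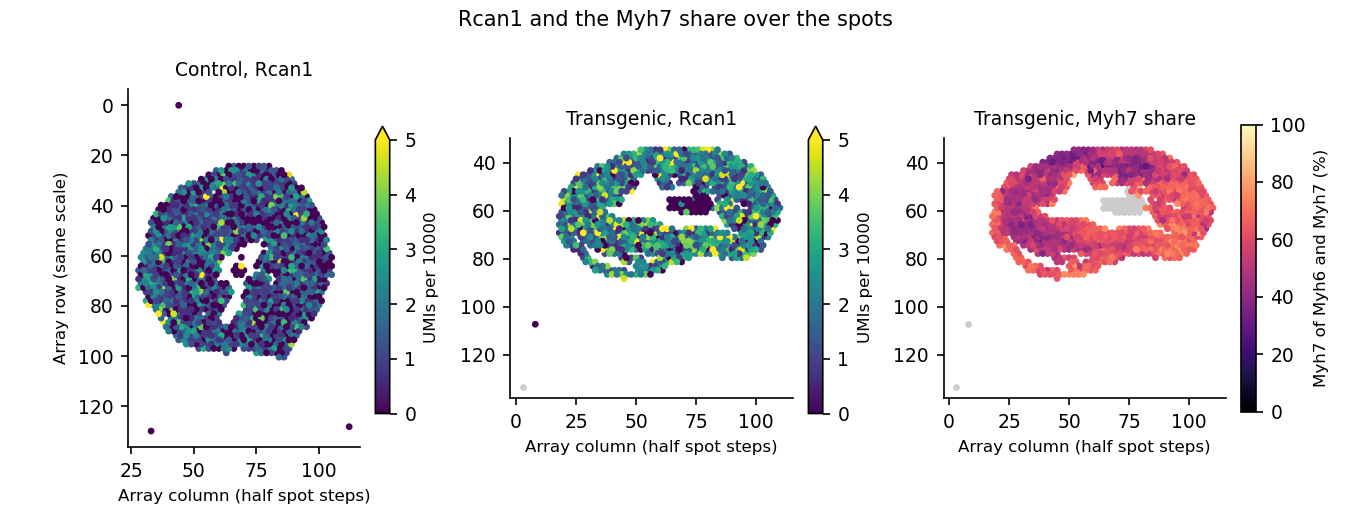
Spots of both sections at their array positions (both axes in steps of the array, drawn to 1 scale), colored by Rcan1 UMIs per 10000 UMIs of the spot (left, control, and center, transgenic, with the color scale ending at 5) and by the Myh7 share of Myh6 and Myh7 UMIs (right, transgenic). Grey spots had fewer than 20 UMIs of Myh6 and Myh7, or no UMI at all. Rcan1 is higher over most of the transgenic section, and its pattern does not follow the Myh7 share, with a rank correlation of -0.02.

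Of the 6 genes of the set with at least 200 UMIs in these spots, 0 were at least 1.5-fold higher and 0 at least 1.5-fold lower in the highest Myh7 quintile, against 5.17% and 2.10% of 7576 genes. Nfatc2 came nearest, with 60.4, 57.4, 55.3, 51.4 and 40.5 CPM from the lowest to the highest quintile, a log2 ratio of -0.58 (-0.95 to -0.21) and a rank correlation of -0.14. Its level was lower in each successive quintile. Camk2d read 53.7, 58.2, 64.2, 45.4 and 54.1 CPM, with a log2 ratio of 0.01 (-0.34 to 0.36). Ppp3ca had a log2 ratio of 0.19 (-0.01 to 0.39), Ppp3cb of -0.21 (-0.52 to 0.10) and Camk2b of 0.55 (-0.03 to 1.14), with all these intervals reaching across 0. Nfatc3 had a log2 ratio of 1.23 (0.19 to 2.35) on 12 and 26 UMIs, with no order over the quintiles in between.

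Nfatc2 also differed with the share of a set of cardiomyocyte genes in the spot, which itself had a rank correlation of -0.22 with the Myh7 share. When the 923 transgenic spots with UMIs were cut into quintiles by the share of 10 sarcomere and calcium release genes, Nfatc2 read 32.3, 46.2, 53.4, 62.2 and 66.6 CPM from the lowest to the highest quintile. The log2 ratio was 1.04 (0.64 to 1.45) and the rank correlation 0.23. Of the 6 genes with at least 200 UMIs, 1 was at least 1.5-fold higher, Nfatc2, and 1 at least 1.5-fold lower, Camk2b, against 8.43% and 12.5% of 7590 genes. Camk2b read 24.9, 21.8, 22.5, 18.2 and 14.3 CPM, with a log2 ratio of -0.80 (-1.43 to -0.18). Ppp3r1, too sparse to be among the 6, read 9.18, 9.24, 11.1, 13.5 and 17.3 CPM, on 21 UMIs in the lowest and 46 in the highest quintile. The log2 ratio of Ppp3r1 was 0.92 (0.14 to 1.73), and 0.77 (-0.08 to 1.67) in the control section. In the control section, Nfatc2 read 27.5, 38.2, 33.1, 37.3 and 35.7 CPM over the same kind of quintiles, with a log2 ratio of 0.38 (-0.07 to 0.83), and Camk2b had -0.02 (-0.64 to 0.60). There, 0 of the 6 genes were past 1.5-fold in either direction, against 0.540% and 2.09% of 7221 genes. The lowest transgenic quintile also held 7.43% erythroid UMIs against 0.710% in the highest, and fibroblast markers of 0.142% against 0.0625%. Nppa, a stress-associated cardiac gene, ran against this share, with 29087 CPM in the lowest and 13194 CPM in the highest transgenic quintile. The part of these differences in the Nfatc2, Camk2b and Ppp3r1 values was not tested. Rcan1 ranged over 207 to 236 CPM in the transgenic quintiles, with a log2 ratio of 0.09 (-0.09 to 0.27) and a rank correlation of 0.12, and over 113 to 119 CPM in the control quintiles, with a rank correlation of 0.01.

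**Figure D5:**
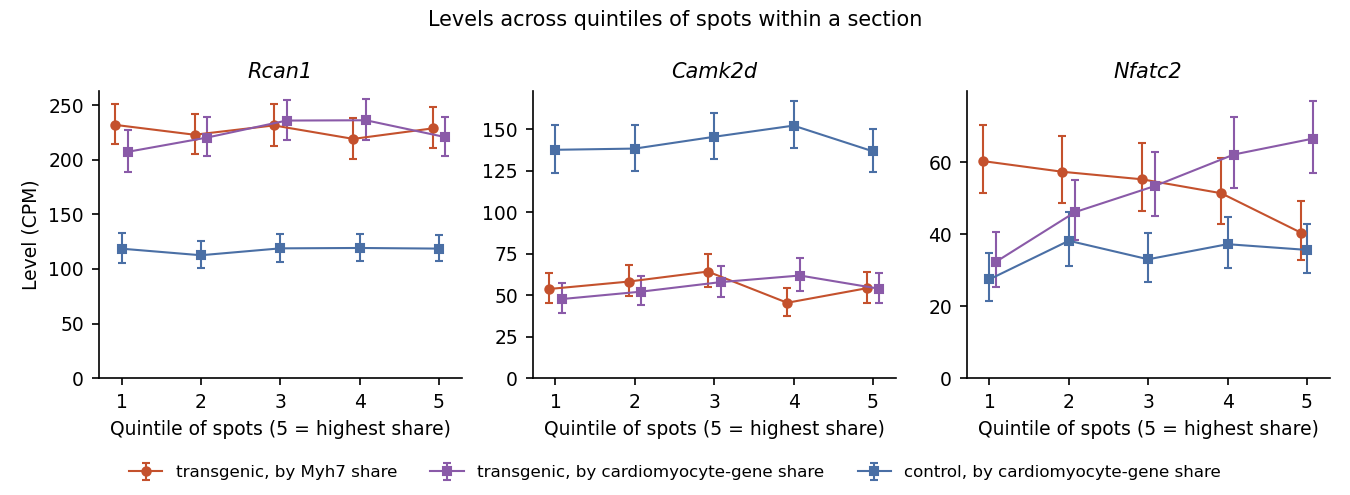
Levels of Rcan1, Camk2d and Nfatc2 (CPM, with 95% counting intervals) in quintiles of transgenic spots ordered by the Myh7 share (red circles) or by the share of cardiomyocyte genes (purple squares), and in quintiles of control spots by the share of cardiomyocyte genes (blue squares). Rcan1 and Camk2d differ more between sections than within them, where Camk2d ranges over 45.4 to 64.2 CPM in the Myh7 quintiles. Nfatc2 runs from 60.4 to 40.5 CPM with the Myh7 share and from 32.3 to 66.6 CPM with the cardiomyocyte share.

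Blood and the tissue edge were looked at as well. Between the outer quintiles of the transgenic spots by hemoglobin share, Rcan1 read 244 and 196 CPM, a log2 ratio of -0.32 (-0.50 to -0.14) where the median of all genes was -0.17. Of the 6 genes, 0 were past 1.5-fold in either direction on that axis, against 1.00% higher and 4.80% lower of 7590 genes. At the edge of the control section Ppp3ca read 145 CPM against 111 CPM in the interior, which is 0.39 (0.21 to 0.58) on the log2 scale, while the transgenic section read 169 and 164 CPM. The edge intervals of the other 9 genes included 0 in both sections. Edge spots numbered 230 of 1256 in the control and 311 of 924 in the transgenic section. The share of all genes with an edge difference was not computed, so these edge values are given as a description only.

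Spatial autocorrelation, as Moran's I of the deposited score, was 0.01 for Rcan1 in the control and 0.13 in the transgenic section, and 0.01 and 0.12 for Ppp3ca. These values were typical of their sections, since the median over genes with at least 1000 UMIs was 0.01 for 2278 control genes and 0.11 for 2338 transgenic genes. The genes whose levels ran most like Rcan1 over 923 transgenic spots, of 2337 compared, were Hsp90aa1 and Pigp with rank correlations of 0.19 and Fhl2, Ryr2 and Trim72 with 0.18. Such weak correlations in sparse counts, with spot depth in common, are given as a description only.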

How the data were processed

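Probe-based Visium CytAssist libraries of 2 heart sections were used. The deposited values are UMI counts for every gene in each spot over tissue, made by the authors with Space Ranger 2.0.0 and not normalized, and Moran's I per gene as a score. Per the labels the genome build is GRCm39, and the probe set is not given in the sources used here. The 725 spot barcodes found in both sections are the fixed array positions. Counts were summed per section, since spots are not replicates, and no test was run and no p-value computed. Intervals at 95% were exact Poisson for CPM, exact conditional binomial for ratios and Clopper-Pearson for shares. Only those for ratios were tested on simulated data, which were drawn as Poisson counts and held no spread between spots or animals. Levels are compared between sections and not between probes of different genes. The genes and lists were chosen with earlier results of these data known. Named are the 10 genes, the highest and lowest gene of each list, the 5 genes most like Rcan1, Top2b, Myh6, Myh7 and Nppa. Rcan2, Rcan3, Camk2a, Camk2g, Nfat5, Myoz2, Lmcd1 and single marker genes were named after their values were seen. Quintiles were made by rank of spots, and thinning used the 10th percentile of UMIs. Motifs were searched in RefSeq windows of GRCm38.p6, with no coordinates taken to another build. Of the 10 genes, 8 had a window. Alternatives were TMM (edgeR 4.0.16), DESeq2 1.42.0 size factors, other totals, other sets of spots, the mean over spots and 1 CPM added. Alternatives without hemoglobin genes or hemoglobin-rich spots, and without the myosins and Nppa, were chosen after seeing the data. Python 3.11.15, scipy 1.17.1 and R 4.3.3 were used.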

Additional observations from a re-analysis of the deposited data

How the results depend on the processing

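Of 262 alternative values of 26 results, 244 stayed and 18 moved. For ratios, shares and counts, staying meant lying within the counting interval of the value reported or within 1.5 times its count. Many alternatives were counts of genes, for which that band is wide because a list caps its count. Some alternatives hardly changed the data, as spots with at least 1000 UMIs moved the median of all genes by -9.4e-07. The tally is therefore a description and no measure of robustness. The rank correlation has no counting interval. Its alternatives, all among the 244, were held against a band that treats spots as independent. Spots of 1 section are not replicates, so for the rank correlation this label is a description only. No alternative turned the sign of a value whose interval left out 0. Counts of genes have no sign, so they could not fail this check. Rcan1 was higher under all 10 alternatives, with a log2 ratio of 0.78 with TMM factors, 0.78 with DESeq2 size factors and 0.85 when the 50 most abundant genes left the totals. Camk2d was at -1.53 under TMM and -1.52 under DESeq2 scaling. These scalings lowered all genes by 0.16, 0.15 and 0.09 by construction, so distances from the median of all genes stayed as given. DESeq2 scaling left 7 of the 10 genes higher, and 52.6% of all genes. Nfatc3 ranged from -0.09 to 0.20 and was below 0 under 4 of 10 alternatives. In the 50% of spots richest in cardiomyocyte genes the Rcan1 share of the Rcan genes differed by 14.9 percentage points, against 17.2 over all spots. Among the spots in the middle of 3 depth classes, the highest over the lowest Myh7 quintile of Rcan1 was 0.21 (-0.08 to 0.50), against -0.18 and -0.16 in the other classes, and the cause was not tested. The rank correlation of Rcan1 with the Myh7 share stayed between -0.06 and 0.04. Nfatc1, Nfatc3, Nfatc4 and Ppp3r1 rest on under 200 UMIs a section, and 1 section per condition leaves differences between animals unmeasured. No paired analysis was possible because the result comes from no test.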
